A study of Mus musculus with 5 samples.

Results

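A rule for choroid plexus epithelial cells picked out 51 of 30699 kept cells in 5 droplet libraries of mouse hippocampus from postnatal day 1. A barcode was kept with at least 500 genes, at least 1000 unique molecular identifiers (UMIs, one per captured transcript) and at most 15% UMIs of mitochondrial genes, which 30699 of 40345 barcodes met. A kept cell was called a choroid plexus epithelial cell, or member, if it held at least 20 UMIs of Ttr and at least 2 UMIs over Folr1, Kcnj13, Clic6 and Kl together. The cells were thus chosen by their UMIs of those 5 genes, whose levels are given as a description. The libraries were 3 from wild-type pups (Trem2 +/+, replicates 1, 2 and 3) and 2 from Trem2 knockout pups (Trem2 -/-, replicates 2 and 3). Each library pooled 2 pups. Per the sample descriptions both pups were male in replicate 2 of each genotype and 1 of 2 was male in the other libraries. The sex label reads male and female for every library, which differs for replicate 2. The descriptions were used. Papain was used to free the cells. The labels name no sort, no treatment, no Cre and no transgene. They do not say whether the pools of a genotype came from separate litters, so p-values measure the spread between these pools.

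The choroid plexus is a vascular fold of the ventricle wall covered by a single epithelial sheet that secretes cerebrospinal fluid. Its epithelial cells move salt, bicarbonate and water from blood to ventricle, seal the blood to cerebrospinal fluid barrier with tight junctions, and release carrier and growth-regulating proteins, of which transthyretin (Ttr) is the most familiar. They arise from the dorsal midline (the roof plate and, in the telencephalon, tissue next to the cortical hem), carry tufts of cilia, and lie beside the ependymal cells that line the ventricle. Trem2 is a receptor of microglia, the resident macrophages of the brain, and is not known as a gene of this epithelium.

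The cells were few in every library. They numbered 12, 10 and 13 in wild-type replicates 1, 2 and 3, and 8 in each of knockout replicates 2 and 3. Their share of kept cells was 0.166% (95% exact Clopper-Pearson interval 0.124 to 0.218%, which covers counting error only). By library the share was 0.189, 0.212 and 0.153% in wild type and 0.143 and 0.145% in the knockout. Both knockout libraries lay below all 3 wild-type libraries. The means were 0.184% ± 0.0299 (SD, n = 3) and 0.144% ± 0.00172 (SD, n = 2), with a two-sided exact permutation p of 0.2 where 0.1 is the smallest that 3 against 2 libraries allow. The groups overlapped when 1 UMI of the other 4 genes was enough (knockout replicate 3 at 0.218%, wild-type replicates 1 and 3 at 0.189 and 0.165%). They also overlapped with at least 1000 UMIs of Ttr (wild-type replicate 3 at 0.0705%, the knockout at 0.107 and 0.0908%). With at most 5% mitochondrial UMIs the order turned, and the knockout share was higher by 0.0952 percentage points. The number of these cells also follows how much plexus was taken out with the hippocampus, which was not measured.

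The members were deep cells. Their median was 19032 UMIs (range 1275 to 118808) and 4857 genes, against a median of 8659 UMIs in the other kept cells. Summed over members, the libraries held 304453, 475675, 301389, 206545 and 346377 UMIs in the order wild-type replicates 1, 2, 3 and knockout replicates 2, 3. A single cell supplied 20.5 to 39.5% of each sum. The deposited libraries held 60024793 to 91205882 UMIs each. Library pairs shared 12 to 26 barcodes, and no barcode was a member in more than 1 library. Median UMIs per member were 18204, 55840 and 14977 in wild type and 15566 and 37422 in the knockout, with overlapping groups (two-sided exact permutation p = 0.9). Median genes per member did not separate the groups either (exact permutation p = 0.9), nor did the median mitochondrial percent, at 5.43 ± 0.976 (SD, n = 3) and 4.77 ± 0.290 (SD, n = 2; exact permutation p = 0.5).

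Trem2 gave 0 UMIs in the members of every library. Over the 1634439 member UMIs this allows up to 3 UMIs, a limit that covers counting error only. Over all kept cells, Trem2 held 1873, 1317 and 365 UMIs in wild type and 41 and 21 in the knockout, or 27.5, 23.2 and 4.13 against 0.650 and 0.316 CPM (counts-per-million UMIs). The knockout libraries were therefore lowest for the targeted gene, and wild-type replicate 3 lay well below the other wild-type libraries. Microglia and macrophage markers in all kept cells but the members summed to 573, 389 and 112 CPM in wild type and 316 and 80.9 in the knockout. Wild-type replicate 3 was the lowest wild-type library for these as well. A 3′ tag outside a deleted part would still be counted, and the deleted part is not given in the labels.

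The label was checked against 10 further markers of the epithelium that the rule did not use: Otx2, Aqp1, Kcne2, Slc4a5, Enpp2, Htr2c, Trpm3, Lmx1a, Msx1 and Igf2. At least 3 of the 10 were detected in 47 of 51 members, at least 5 in 38, and all 10 in 13. Trpm3, a cation channel, had a UMI in 47 members. Otx2 and Msx1, homeodomain factors of the dorsal midline, each had one in 45, and Enpp2, the enzyme that makes lysophosphatidic acid, in 40. The anti-ageing protein gene Kl, a gene of the rule, was found in 17. Some cells carried RNA that goes against the label. Signs of another cell type were found in 38 of 51 members. Of these, 6 had a neuronal share of at least the median of other kept cells divided by 4. The other sign was at least 5 UMIs over fibroblast, endothelial, macrophage and erythroid markers. This was a fixed count, not scaled to depth. Apart from 1 cell of wild-type replicate 3 with 148 endothelial UMIs, no member held over 5 endothelial, 2 macrophage or 1 erythroid UMIs. This second sign therefore came mostly from fibroblast markers. Per 10000 UMIs other than Ttr, their median was 4.44 in members under 5% Ttr, 2.20 at 5 to 20% and 5.74 at 20% or more. Whether members without these signs are a purer set was not tested. No marker of the 10 was found in 2 members, both of knockout replicate 3. One of them held 457 UMIs of pan-neuronal genes and 31 of Ttr among 20050 UMIs, and the other held 1275 UMIs in all. A member of wild-type replicate 2 held 1241 UMIs of radial glia and astrocyte markers and 65 of Ttr, beside 5 of the 10 markers. Other members with under 5% Ttr also held radial glia and astrocyte UMIs, among them 164 and 425 in 2 cells of wild-type replicate 3, 113 in a cell of knockout replicate 2 and 411 in a cell of knockout replicate 3. A further cell of wild-type replicate 3 held 83 UMIs of dividing-cell genes and 21 of Ttr. The name is used below for the whole set as the rule called it, and the range of Ttr within it is described separately. The 12 members under 5% Ttr had no UMI of Slc4a5, Aqp1, Igf2 or Kl, while Otx2 was found in 9 of them and Msx1 in 10. Which cell type each member is was not tested further.

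Values just inside and outside the limits of the rule were close. Inside it, 5 members held 20 to 99 UMIs of Ttr and 5 held 2 or 3 UMIs over the other 4 genes. Outside it, 18 kept cells had at least 20 UMIs of Ttr but under 2 of the other genes, with a median of 43 and a highest value of 226 UMIs of Ttr. A single kept cell had 10 to 19 UMIs of Ttr with at least 2 of the others. All other kept cells averaged 0.116 to 0.210 UMIs of Ttr per cell, and 5.58 to 14.7% of them had any. In cells gated as neurons, which should lack Ttr, 5.12 to 13.8% had any, so a low count of Ttr in another cell was at the background of these libraries.

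Among the genes the results turn on, promoters were read for 3 that stand for 3 roles: Slc4a5, a bicarbonate transporter with 8 UMIs outside the members, Kcnj13, a potassium channel of the rule, and Otx2, the factor required for the plexus to form. On mm10, Slc4a5 lies at chr6:83219828-83304945 (plus strand), Kcnj13 at chr1:87386363-87394729 (minus strand) and Otx2 at chr14:48657677-48673819 (minus strand). Kcnj13 and Otx2 overlap a gene on the other strand (Gigyf2 with 75 and Otx2os1 with 68 member UMIs). The windows are RefSeq entries on GRCm38.p6, from 250 bases before to 50 after an annotated start, and are printed 5′ to 3′ on the gene's strand. Of 12 genes looked up, 8 had an entry. Capitals mark TAATCC read on either strand, the core that Otx-type homeodomains bind.
Slc4a5, chr6:83237125-83237424: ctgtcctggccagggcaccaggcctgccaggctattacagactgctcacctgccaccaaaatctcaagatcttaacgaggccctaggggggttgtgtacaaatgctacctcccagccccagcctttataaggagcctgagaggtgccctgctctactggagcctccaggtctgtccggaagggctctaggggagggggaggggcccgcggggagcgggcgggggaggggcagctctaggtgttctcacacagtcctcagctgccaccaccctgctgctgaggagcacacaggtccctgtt
Kcnj13, chr1:87394680-87394979: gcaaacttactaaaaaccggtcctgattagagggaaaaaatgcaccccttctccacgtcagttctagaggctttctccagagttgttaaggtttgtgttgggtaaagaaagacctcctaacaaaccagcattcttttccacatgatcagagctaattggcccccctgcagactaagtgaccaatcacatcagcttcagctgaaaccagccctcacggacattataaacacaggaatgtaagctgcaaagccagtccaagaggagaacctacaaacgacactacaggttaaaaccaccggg
Otx2, chr14:48665060-48665359: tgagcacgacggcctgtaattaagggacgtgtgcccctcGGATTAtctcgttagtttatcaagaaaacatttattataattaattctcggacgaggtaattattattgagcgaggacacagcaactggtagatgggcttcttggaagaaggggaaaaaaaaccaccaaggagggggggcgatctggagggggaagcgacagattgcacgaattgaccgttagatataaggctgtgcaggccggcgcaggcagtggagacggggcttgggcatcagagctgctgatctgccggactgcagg
The match in Otx2 was in 1 of its 4 entries, and the windows of Slc4a5 and Kcnj13 held none. TAATCC on either strand was in 7.06% of all 32851 promoters of this length. A match is a description of letters, not a binding site.

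Ttr was the most abundant transcript of the set. It made up 22.2, 15.4 and 14.2% of member UMIs in wild-type replicates 1, 2 and 3 and 9.91 and 10.95% in knockout replicates 2 and 3. Cell by cell, the share ran from 0.0933 to 48.2% with a median of 15.5%. The next most abundant were Malat1, mitochondrially encoded genes (mt-Co3, mt-Atp6, mt-Co2, mt-Cytb, mt-Co1) and genes of translation (Tpt1, Eef1a1 and ribosomal proteins). Ecrg4, a secreted peptide precursor of this epithelium, was among the 20 genes of highest level. The other genes of the rule followed at 766 ± 172 CPM for Folr1, the folate receptor, 491 ± 123 for Clic6, a chloride channel protein, 252 ± 63.8 for Kcnj13 and 45.7 ± 18.4 for Kl (SD, n = 5 libraries).

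**Figure D1:**
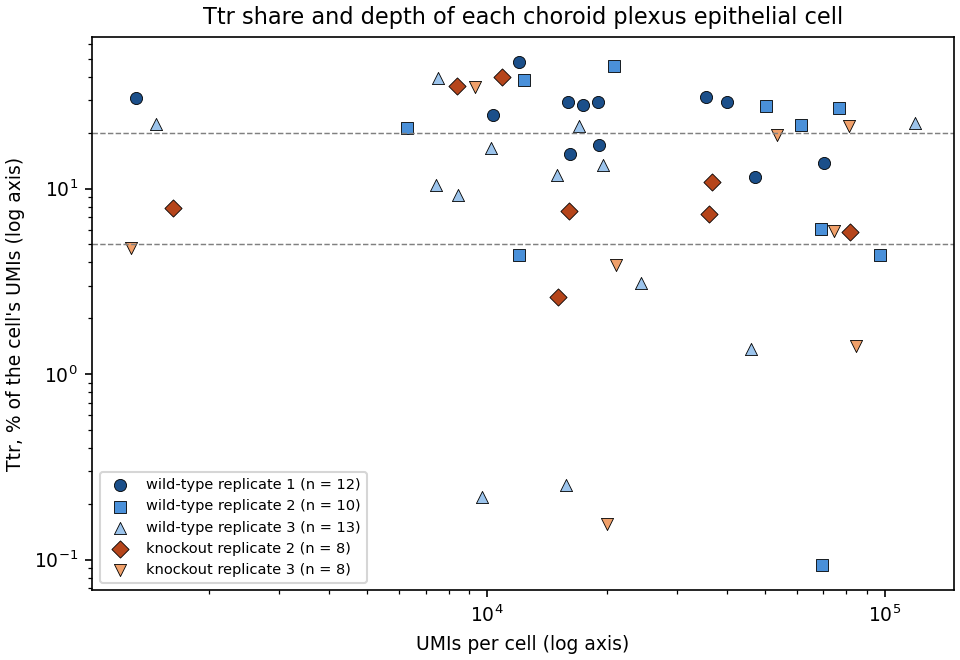
Each point is 1 of 51 choroid plexus epithelial cells, with its UMIs (x, log axis) and the percent of them that were Ttr (y, log axis); marker and colour give the library, and dashed lines stand at 5 and 20%. The share ran from 0.0933 to 48.2%, 4 cells lay below 0.3%, and no cell of wild-type replicate 1 lay below 11.5%.

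Levels in the members were set beside those of 3 other sets from the same libraries: 740 cells of an ependymal gate (at least 5 UMIs over 6 cilium genes), 9005 cells of a glial gate (at least 20 UMIs over radial glia and astrocyte genes, above those of neuronal genes), and all other kept cells. The glial gate was not glia alone. Its endothelial markers summed to 1316 CPM against 422 in all other kept cells, and its erythroid markers to 2057 against 1120. Its microglia and macrophage markers were lower, at 45.2 against 294 CPM. The rule chose the members for plexus genes and the gates were set on other genes, so these differences are descriptions with no test. Of 3179 genes with a mean of at least 50 CPM in the members, 857 were higher than in all other kept cells in each of 5 libraries, and 121 had a mean at least 10-fold higher. Against the ependymal gate, 652 were higher in each library and 80 at least 10-fold.

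Fluid secretion genes were much higher than in the rest. Slc4a5, an apical sodium bicarbonate cotransporter, was at 223, 96.7 and 109 CPM in wild type and 247 and 107 in the knockout. All other kept cells together held 8 UMIs of it and the ependymal gate none, so it was at least 942-fold higher than there, taking a floor of 3 UMIs over the gate. Kcne2, a potassium channel subunit, was at 552, 219, 129, 276 and 162 CPM, again with 0 UMIs in the ependymal gate. Aqp1, the apical water channel, was at 253 ± 96.4 CPM (SD, n = 5) against 0.730 in the ependymal gate and 0.391 in all other cells. The carbonic anhydrase Car14 was the steadiest of these, at 187, 223, 199, 232 and 211 CPM against 1.36 in the ependymal gate. Of 22 listed genes of ion and water transport, 16 were higher than in all other kept cells in each of 5 libraries and 1 was lower, and their sum was 4844 ± 1310 CPM (SD, n = 5) against 833.

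Carriers for hormones and nutrients were higher as well. Slc23a2, a vitamin C transporter, was at 134 ± 47.2 CPM (SD, n = 5) against 12.6 in the ependymal gate, and Slc13a4, a sulphate transporter, at 132 ± 74.5 against 10.6 CPM. Of 22 listed carriers, 11 were higher than in all other kept cells in each library and 2 lower.

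The secreted proteins were the most even group across libraries. Without Ttr, 19 listed genes of proteins released into cerebrospinal fluid summed to 12958, 12504 and 13415 CPM in wild type and 13387 and 13064 in the knockout, against 5506 in the ependymal gate and 2894 in all other cells. Ecrg4 was at 2526, 2786, 3175, 2765 and 2985 CPM, and Igfbp2, a binder of insulin-like growth factors, at 1843, 2157, 2080, 2014 and 2359 CPM. Both varied little, with every library inside 15% of the mean. Enpp2 was far less even, at 1869, 875 and 584 CPM in wild type and 479 and 473 in the knockout. Wfikkn2, a protease inhibitor that binds growth factors, was at 329 ± 79.3 CPM against 2.67 in the ependymal gate, and Wfdc2 at 268 ± 142 against 0.779.

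Barrier and epithelial genes marked the cells off from the gates. Krt18, a keratin of simple epithelia, was at 338 ± 95.7 CPM (SD, n = 5), against 35.8 in the ependymal gate and 0.0832 in the glial gate. The tight junction claudins Cldn1, Cldn2 and Cldn3 were at 126 ± 77.0, 104 ± 48.1 and 99.9 ± 24.7 CPM, against 0.338, 2.81 and 4.58 in the ependymal gate. Of 19 listed junction and keratin genes, 9 were higher than in the ependymal gate in each library and 3 lower.

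Less studied genes were as restricted. Tmem72, a membrane protein gene, was at 182 ± 70.0 CPM with 19 UMIs in all other kept cells. The gene model 2900040C04Rik was at 435 ± 225 CPM with 9 UMIs elsewhere. Defb11, a defensin gene, was at 401, 139 and 23.2 CPM in wild type and 19.4 and 46.2 in the knockout, with 2 UMIs elsewhere. Prr32 was at 76.9 ± 61.7 CPM with 4 UMIs elsewhere. Htr2c, the serotonin receptor long known from this tissue, was at 792, 418 and 202 CPM in wild type and 165 and 165 in the knockout, against 0.397 in the ependymal gate. Sulf1, an enzyme that trims heparan sulphate, was at 783 ± 256 CPM against 14.2.

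**Figure D2:**
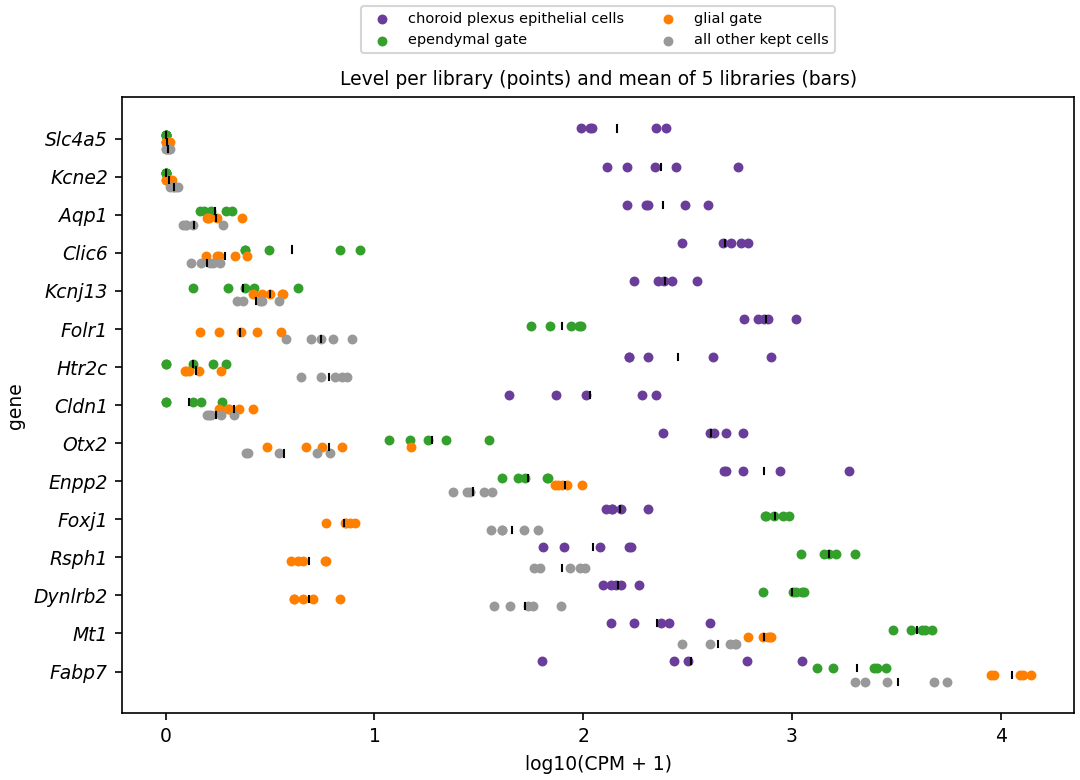
Level of 15 genes on a log10(CPM + 1) axis in choroid plexus epithelial cells, the ependymal gate, the glial gate and all other kept cells; each point is 1 of 5 libraries and each bar their mean on this axis. Slc4a5 and Kcne2 were at 0 UMIs in the ependymal gate, and Foxj1, Rsph1 and Dynlrb2 lay between the ependymal gate and the glial gate.

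The cilium programme was present at a lower level than in ependyma. The 28 listed genes of the motile axoneme summed to 2567 ± 450 CPM (SD, n = 5) in the members, 13906 in the ependymal gate and 466 in the glial gate. All 28 were lower than in the ependymal gate in each of 5 libraries, and 22 were higher than in the glial gate in each. Foxj1, the master factor of motile cilia, was at 204, 128, 136, 150 and 136 CPM against 836 in the ependymal gate. Foxj1 was among the genes that set the ependymal gate, as were Rsph1 (119 ± 47.8 against 1528 CPM) and Dynlrb2 (147 ± 23.0 against 1009 CPM). Ccdc153 and Tmem212, both genes of that gate, held 4 and 2 UMIs in the members. The drivers of the multiciliated fate behaved alike, with 11 of 13 lower than in the ependymal gate in each library. The exception by mean was Gmnc, which acts at the top of that cascade: it was at 62.4, 25.2 and 6.64 CPM in wild type and 0 and 11.5 in the knockout, against 11.5 in the ependymal gate. Metallothionein Mt1 was also low, at 241 ± 103 CPM against 4002.

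Genes of position along the neural tube were mostly low. All 6 listed forebrain genes had UMIs, led by Six3 at 97.3 ± 50.4 CPM against 3.60 in all other kept cells. Lhx2 (25.1 ± 13.7 against 307 CPM), a factor of cortical and hippocampal fate, was lower than in all other kept cells in each library. None of 12 listed hindbrain genes (Hox, En and Gbx2) had a UMI in the members. The same list summed to 0.994 CPM in all other kept cells, so it was near 0 everywhere and the absence is not particular to the members. Otx2 was at 483, 420, 239, 581 and 404 CPM against 2.96 in all other cells, and Msx1 at 358 ± 94.2 against 8.57.

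RNA of most other cell types was below the level of all other kept cells, and uneven. Microglia and macrophage markers summed to 0 to 19.7 CPM over the 5 libraries, against 294 in all other kept cells, with 5 of 10 at 0 UMIs. Erythroid markers summed to 4.84 to 10.5 CPM against 1120. Pan-neuronal markers summed to 660, 1236 and 581 CPM in wild type and 721 and 2012 in the knockout, against 11654. Radial glia and astrocyte markers summed to 992, 3620 and 3912 CPM in wild type and 1549 and 2194 in the knockout. All other kept cells were at 7880 CPM on average and at 6417 in wild-type replicate 3. The glial gate, set on radial glia and astrocyte genes, was at 23799. Endothelial markers were at 508 CPM in wild-type replicate 3 and 8.41 to 20.2 in the other libraries, against 422 in all other kept cells, and 1 cell of that replicate held 148 of their UMIs. Fibroblast markers summed to 371 ± 104 CPM (SD, n = 5), which was above the 267 of all other kept cells.

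Within the set, cells fell along a range of Ttr share, and other genes moved with it. Cut points of 5 and 20% were chosen after the values were seen. Below 5% lay 12 members, between them 17, and at 20% or above 22. The cut points divide a range of values, with 5 members within 1 percentage point of 5% and 5 within 2 points of 20%, and whether the cells are of different types was not tested. Cells under 5% numbered 0, 3 and 4 in wild type and 1 and 4 in the knockout, and cells at 20% or above 8, 6 and 4 against 2 and 2. Depth was similar, with medians of 20596, 19573 and 16478 UMIs from the low to the high range. Levels below are CPM computed without Ttr, as medians over cells, since Ttr alone took up to 48.2% of a cell. The cells share 5 libraries and Ttr chose them, so no test was made.

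Genes of the secreting epithelium were highest where Ttr was highest. Enpp2 had a median of 0, 531 and 1673 CPM in the low, middle and high range. Htr2c stood at 0, 329 and 738 CPM, Trpm3 at 304, 1419.8 and 2002, and Sostdc1, a secreted inhibitor of Bmp and Wnt signals, at 141, 664 and 2392. Of the transport genes, Slc12a2, the sodium, potassium and chloride cotransporter, stood at 13.2, 234 and 619 CPM. Slc4a5 was at 0, 131 and 180 CPM and Aqp1 at 0, 63.1 and 402. Igf2 was at 0, 28.4 and 29.5 CPM, nearly level between the middle and high range. Slc4a5, Aqp1, Igf2 and Kl had no UMI in any of the 12 cells of the low range. Not every marker of the plexus followed. Otx2 was at a median of 202, 494 and 464 CPM and Msx1 at 286, 439 and 420.

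Some genes of Wnt signalling, named after their values were seen, had the opposite order. The 21 listed genes of Bmp, Wnt and hedgehog signalling together had a median of 32.4, 12.8 and 10.1 UMIs per 10000 UMIs other than Ttr. Bmp4 and Bmp7 of that list did not follow this order. Their medians in the low, middle and high range were 0, 151 and 125 CPM for Bmp4 and 66.4, 126 and 77.5 CPM for Bmp7. Rspo3, an R-spondin that amplifies Wnt signals, had a median of 1200.5, 315 and 54.8 CPM in the low, middle and high range, and was found in 10 of 12, 15 of 17 and 14 of 22 cells. Rspo1 was found in 8 of 12, 6 of 17 and 0 of 22 cells. Wnt8b, a ligand made at the cortical hem, was found in 8 of 12, 5 of 17 and 1 of 22 cells, with 98, 29 and 1 UMIs. Wnt3a, a ligand of the same region, had 17, 5 and 0 UMIs. In the glial gate Rspo1 averaged 7.47 CPM and Wnt8b 18.05 CPM. Fabp7, a fatty acid binding protein of radial glia, stood at 851, 71.7 and 22.8 CPM, and the nuclear factor Nfia at 736, 504 and 179. Of immediate early genes, Egr1 was at 1580.3, 1205 and 211 CPM and Jun at 1462, 352 and 119.5. Both were named after their values were seen, and their part in the order of the other genes was not tested. Radial glia and astrocyte markers had a median of 49.9, 12.6 and 14.5 UMIs per 10000 UMIs other than Ttr, and pan-neuronal markers 7.10, 6.64 and 6.80.

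**Figure D3:**
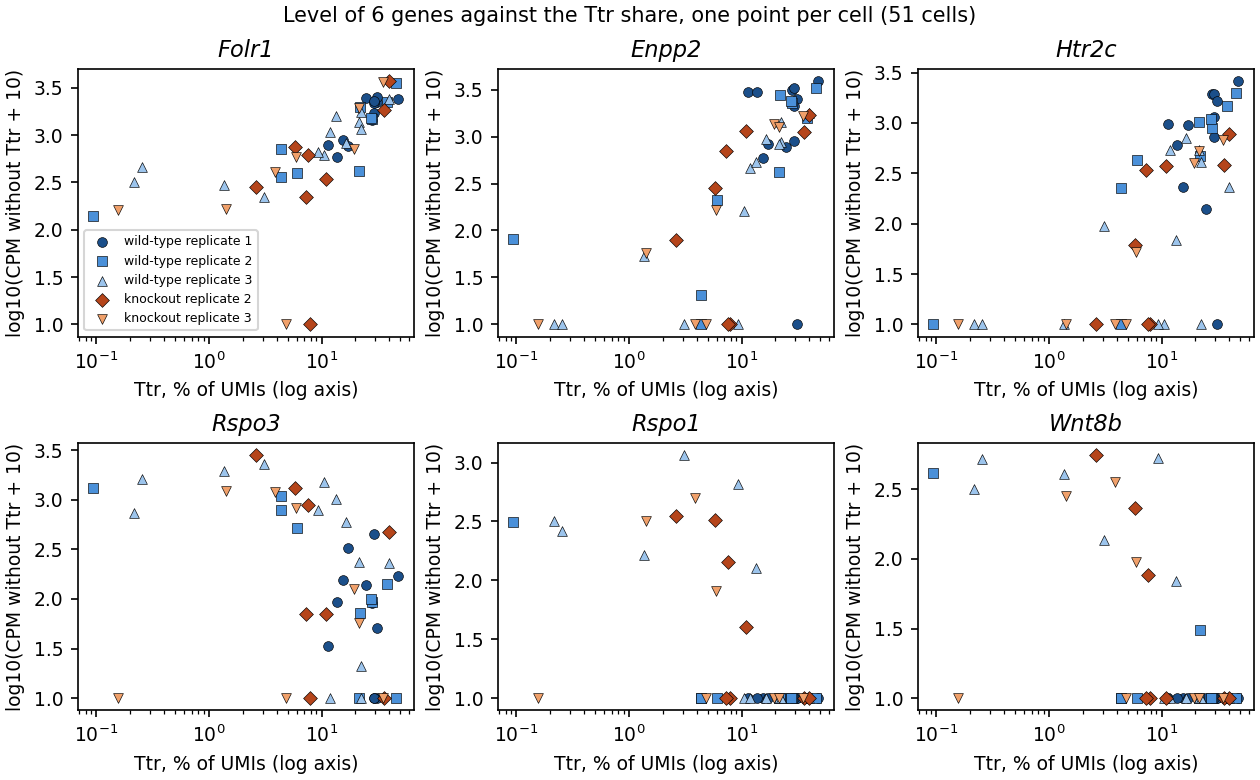
Level of 6 genes, as log10(CPM computed without Ttr + 10), against the percent of UMIs that were Ttr (log axis); each point is 1 of 51 cells, coloured by library, and points at the bottom of a panel had 0 UMIs. Folr1, Enpp2 and Htr2c were higher at high Ttr and Rspo3, Rspo1 and Wnt8b at low Ttr, with no Rspo1 UMI in the 22 cells at 20% or above.

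Rank correlations describe the same range over the 47 members with at least 5000 UMIs and the 376 genes with at least 500 member UMIs. The cells share 5 libraries and differ in depth, so no p is given. Folr1, a gene of the rule, had the highest Spearman rho with the Ttr share, at 0.91. Next came Arl6ip1, a membrane-shaping protein of the endoplasmic reticulum (0.84), Enpp2 (0.84) and Htr2c (0.81). Ctsd, a lysosomal protease, was at 0.81 and Ndufa4, a respiratory chain subunit, at 0.77. The lowest were Nfia at -0.76, Mpp6 at -0.74 and Egr1 at -0.73. Within single libraries (7 to 12 cells each) Folr1 ran from 0.68 to 1.00, Htr2c from 0.66 to 0.96, Nfia from -0.84 to -0.25 and Egr1 from -0.87 to -0.32.

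Over all members pooled, the share with signs of division was near that of other kept cells, but these members were unevenly spread. At least 0.1% of UMIs came from 12 genes of dividing cells in 6 of 51 members, or 11.8% (95% exact Clopper-Pearson interval 4.44 to 23.9%), and in 10.3% of other kept cells. The 6 members were 3 in each of wild-type replicates 2 and 3, so the interval does not cover the spread between libraries. By Ttr share they were 4 of 12 cells in the low range, 2 of 17 in the middle and 0 of 22 in the high range. Mki67, a mark of cycling cells, had 69, 28 and 3 UMIs in the low, middle and high range of Ttr.

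The comparison of genotypes asked whether gene levels in the members differed with loss of Trem2. Counts were summed per library over members, and edgeR's quasi-likelihood test with Benjamini-Hochberg adjustment was fitted on 5352 genes. None passed an adjusted p of 0.05, which is 0.0% of the genes tested, and the smallest adjusted p was 0.721. DESeq2 called 0 as well. Of all genes tested, 2604 had a fold change above 0 and 2748 below. At an unadjusted p under 0.05 lay 360 genes, or 6.73%, of which 181 were higher (3.38%) and 179 lower (3.34%) in the knockout. Libraries of both groups did not overlap for 24.2% of genes after scaling (13.0% higher and 11.2% lower in the knockout). Without the scaling factors the split was 18.2% higher and 7.25% lower. Each library rests on 8 to 13 cells. With no gene passing the test, the values that follow are given as measured, on the scaled CPM of that fit.

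Ttr was at 253611, 153253 and 139798 scaled CPM in wild type and 93131 and 103797 in the knockout. Ttr chose the cells, so these values are a description with no test. Beside this, the median share of Ttr per cell was 28.7, 21.7 and 11.8% in wild type and 7.72 and 5.33% in the knockout. Among the 13 cells without signs of another cell type the log2 fold change of Ttr was 1.61, against -0.88 over all members. Those 13 cells were 1, 3 and 5 in wild type and 3 and 1 in the knockout, so wild-type replicate 1 and knockout replicate 3 each rested on 1 cell.

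The genes of smallest p that were higher in the knockout were Fxyd6, a modulator of the sodium pump, Olfm1, Fbln5, Shroom3 and Dmrta2. Fxyd6 was at 56.3, 54.5 and 81.6 scaled CPM in wild type and 241 and 156 in the knockout, a log2 fold change of 1.62 ± 0.32 (SE; edgeR adjusted p = 0.721). Olfm1, a secreted glycoprotein, was at 33.8, 83.9 and 98.0 against 237 and 222 scaled CPM. Fbln5, an elastic fibre protein, was at 93.9, 113 and 101 against 191 and 241. The apical constriction protein Shroom3 was at 41.3, 69.2 and 52.2 against 132 and 140, and the dorsal telencephalic factor Dmrta2 at 15.03, 29.4 and 58.8 against 118 and 109. For each of the 5, both knockout libraries lay above all 3 wild-type libraries, as for 13.0% of all genes tested.

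Those of smallest p that were lower, leaving out Ttr, were A2m, Ctsc, Pnp and Cdkn1a. A2m, a protease inhibitor, was at 158, 197 and 108 scaled CPM in wild type and 31.8 and 52.0 in the knockout, a log2 fold change of -1.83 ± 0.39 (SE; edgeR adjusted p = 0.721). Ctsc, a lysosomal protease, was at 124, 115 and 58.8 against 22.7 and 21.9 scaled CPM. Pnp, a purine salvage enzyme, was at 116, 111 and 52.2 against 27.3 and 13.7, and the cell cycle inhibitor Cdkn1a at 177, 168 and 153 against 68.2 and 84.8. Their groups did not overlap, as for 11.2% of all genes tested in that direction.

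Transport genes had more members with lower than higher values in the knockout, and none passed. Of 19 tested genes of ion and water transport, 4 had a fold change above 0 and 15 below, with a median of -0.24 on the log2 scale. The widest was Slc4a10, a basolateral bicarbonate transporter, at 466, 195 and 32.7 against 18.2 and 19.2 scaled CPM. Atp1b1, a subunit of the sodium pump, was at 646, 378 and 147 against 105 and 87.6. In both, wild-type replicate 1 was highest and replicate 3 lay nearest to the knockout. Of 12 nutrient and hormone carriers, 1 was above 0 and 11 below (median -0.26). Slc31a1, the copper importer, was at 443, 208 and 118 against 72.8 and 98.5 scaled CPM, and Slco1c1, a thyroid hormone carrier, at 316, 313 and 261 against 205 and 153. These counts rested on few libraries and cells. Without wild-type replicate 1 the 2 lists had 7 above and 11 below 0, and 6 and 6. Without knockout replicate 3 they had 8 and 11, and 10 above and 5 below. Without the largest cell of each library they had 9 and 9, and 8 above and 2 below.

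The secreted proteins had no common direction, with 7 of 16 tested above 0, 9 below and a median of -0.03. Igf2, a growth factor of the fluid, was at 424, 149 and 65.3 against 50.04 and 49.3 scaled CPM, and Sostdc1 at 2344, 1470 and 624 against 569 and 419. Among receptors, 4 of 10 were above 0 and 6 below, which became 6 above and 2 below without wild-type replicate 1 and 5 above and 3 below without wild-type replicate 2. Htr2c was at 905, 417 and 199 against 155 and 156 scaled CPM, and the leptin receptor Lepr at 63.9, 33.6 and 19.6 against 9.10 and 16.4. Igf2, Sostdc1 and Htr2c were among the genes that moved with the Ttr share above, whose part in these values was not tested.

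Junction and signalling genes had more members above 0. Of 13 tested junction and keratin genes, 10 were above 0 and 3 below (median 0.24). Ocln, a tight junction protein, was at 52.6, 56.6 and 62.0 against 114 and 93.0 scaled CPM, and the polarity protein Pard3 at 30.1, 39.9 and 55.5 against 72.8 and 82.1. Of 13 genes of Bmp, Wnt and hedgehog signalling, 9 were above 0 and 4 below (median 0.51). Bmp7 was at 116, 54.5 and 68.6 against 173 and 140, and Bmp4, another ligand of the dorsal midline, at 101, 132 and 81.6 against 196 and 170. Without the largest cell of each library the signalling list had 6 above and 7 below 0 (median -0.20). Among 7 tested roof plate factors, Zic1 was at 195, 289 and 313 against 446 and 339 scaled CPM and Id3 at 334, 518 and 467 against 268 and 350.

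Genes of the mitochondrion and of energy supply were counted as well, since the study asks about bioenergetics. All 12 tested mitochondrially encoded genes had a fold change below 0, with a median of -0.66. Without wild-type replicate 1 there were 2 above and 10 below. Groups did not overlap for 7 of the 12, all lower in the knockout, against 11.2% of all genes tested in that direction. mt-Co3 was at 14007, 11826 and 8839 scaled CPM in wild type and 7597 and 5229 in the knockout (log2 fold change -0.84 ± 0.22, SE; edgeR adjusted p = 0.721). mt-Nd1 was at 6528, 4575 and 3412 against 2871 and 2304. Of the barcodes that met the rule, 1 was over the 15% mitochondrial limit of the cell filter, and members reached at most 10.3%. With a limit of 5%, 1 of 11 tested mitochondrially encoded genes was above 0 and 10 below. Nuclear-encoded complex I had 9 of 36 above 0 and 27 below, but its median was -0.09, and without wild-type replicate 1 it had 21 above and 15 below. Complexes II to IV had 3 of 24 above 0 and 21 below (median -0.27), and ATP synthase 4 of 16 above and 12 below (median -0.18). Without wild-type replicate 1 these became 9 above and 15 below, and 11 above and 5 below, and without knockout replicate 2 complexes II to IV had 12 and 12. Glycolysis had 2 of 14 above 0 and 12 below (median -0.38), with Eno1 at 282, 174 and 124 against 105 and 93.0 scaled CPM and Pfkp at 82.6, 75.5 and 55.5 against 27.3 and 38.3. The tricarboxylic acid cycle had 5 of 14 above and 9 below (median -0.18), with Suclg1 at 312, 206 and 189 against 118 and 104. None passed the test. Some of these genes rose with the Ttr share, with a Spearman rho of 0.77 for Ndufa4, 0.74 for Aldoa, 0.72 for Cox4i1 and 0.60 for mt-Nd5. None of the genes in these lists was among the 40 of lowest rho. The median Ttr share per cell was lower in both knockout libraries, and its part in these values was not tested.

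Cilium, stress and division genes completed the lists. Of 19 tested axoneme genes, 3 were above 0 and 16 below (median -0.39), with Spag6l at 116, 50.3 and 42.4 against 27.3 and 27.4 scaled CPM and Cfap44 at 67.6, 27.3 and 39.2 against 18.2 and 13.7. The chaperone Hspa5 was at 507, 659 and 624 against 400 and 285. All 7 tested genes of dividing cells were below 0 (median -1.53), but none had separate groups. Mki67 was at 18.8, 115 and 98.0 against 4.55 and 24.6 scaled CPM, and all 6 members with signs of division were in wild-type replicates 2 and 3. Of 8 tested ligands of Trem2, Csf1r and other microglial receptors, 5 were above 0 and 3 below (median 0.02). Of 11 tested pan-neuronal genes, 9 were above 0 and 2 below, and without knockout replicate 3 the count was 2 above and 9 below (median -0.55). Stmn2, a microtubule regulator of growing axons, was at 60.1, 136 and 55.5 against 59.1 and 350 scaled CPM, and knockout replicate 3 holds the member with 457 neuronal UMIs.

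**Figure D4:**
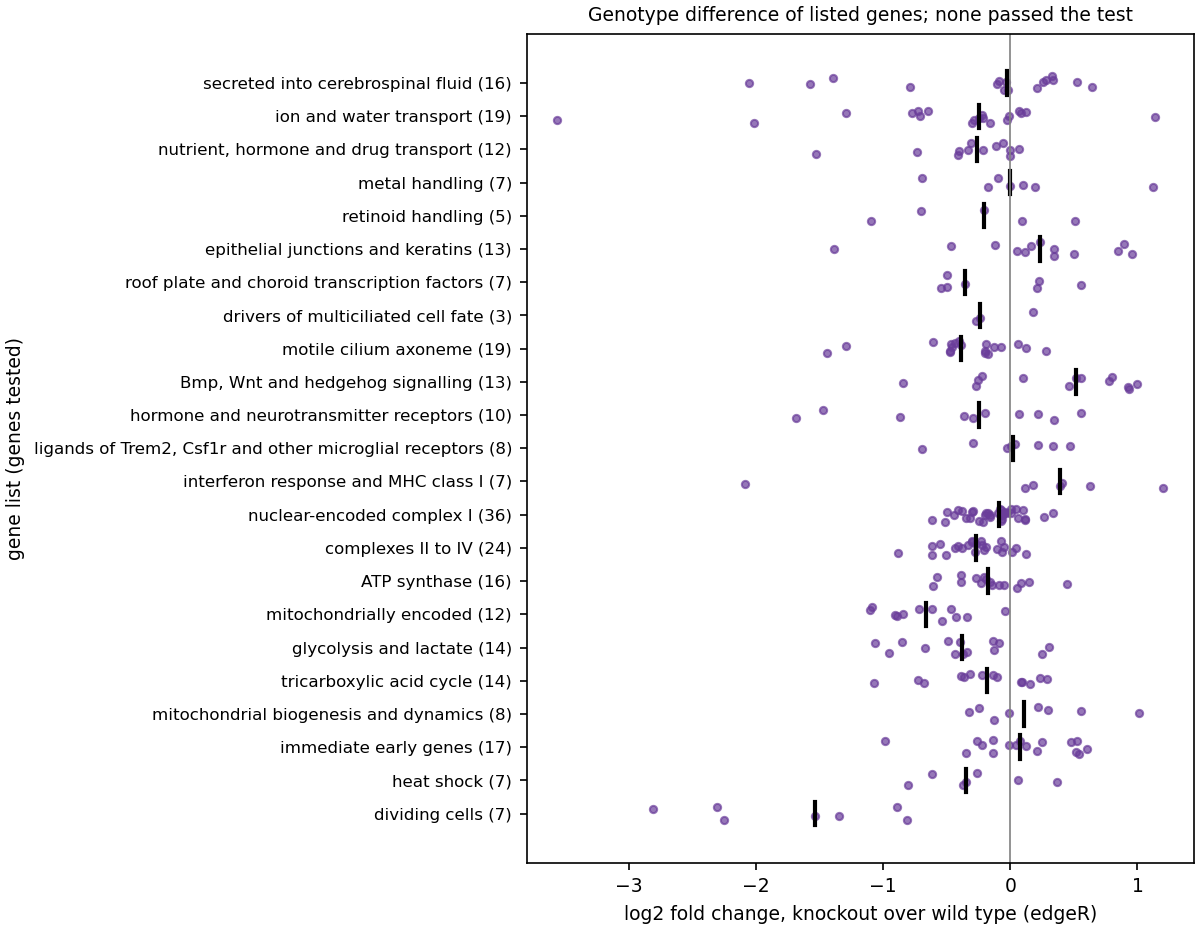
Log2 fold change (knockout over wild type, edgeR) of each tested gene in 23 gene lists; each point is a gene, each bar the median of its list, and the number of genes tested stands after the name. All 12 mitochondrially encoded and all 7 dividing-cell genes lay below 0, no gene passed the test, and the median of all genes was -0.01.

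Fits on fewer cells called some genes. Among the 36 members with at least 1000 UMIs of Ttr, a limit set after the data were seen, edgeR called 12 genes, 10 higher and 2 lower in the knockout. One of the 2 was Ttr, whose call is no test because Ttr chose these cells. Wnt8b and Rspo1 were among the 10. The Rspo1 UMIs of the knockout in that fit came mostly from 2 cells with 24 and 26 UMIs, which had Ttr shares of 5.80 and 1.42%. Without the 6 members that carried a neuronal sign, edgeR called 0 genes.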

How the data were processed

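Droplet 3′ single-cell RNA libraries (10x Genomics v3.1) were measured in 5 pools of hippocampus. Per the submitters' processing notes the reads were processed with Cell Ranger 6.1 on mm10 (6.1.1 per the file headers). The deposited values were UMI counts per gene and barcode, not normalized. From these counts the cell limits and the rule were applied, no doublet caller was run, and member counts were summed per library. Sums were tested with edgeR 4.0.16 in R 4.3.3 (TMM scaling, filterByExpr, quasi-likelihood test, Benjamini-Hochberg threshold 0.05, 3 residual degrees of freedom). DESeq2 1.42.0 was an alternative. The fit was also run on counts simulated from its own means and dispersions, which cannot show whether its model holds for sums of so few cells. Shares and medians per library were compared with two-sided exact permutation tests.

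The members and gene lists were chosen with earlier results of these data known. The test was planned for libraries with at least 10 members, which left no knockout library, so all 5 libraries were fitted. Genes were named by smallest p (5 per direction with a mean of at least 20 counts, and 2 per list) and by level. Other lists are given as counts, and some genes of high level are named as examples. Genes in the ranges of Ttr share were named after their values were seen. Gene positions are from GENCODE M21. Use of strand in counting: not given in the sources used here. Hence genes that overlap a gene of the other strand are uncertain. Among them are Kcnj13, Otx2, Zic1, Slc31a1, Bmp4, Car14, Six3, Mdh1, Atp1b1, Pfkp, Folr1 and Cldn3. Library depth and the precision of shares are given with the results. The alternatives were other scaling, filters, gates, covariates and left-out libraries or cells. Some genes are not reported here.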

Additional observations from a re-analysis of the deposited data

How the results depend on the processing

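The count of genes called by edgeR was 0 under both scalings, DESeq2 (160 at unadjusted p under 0.05), the male-pup covariate, each left-out library, the stricter rule, the 5% mitochondrial limit, neuronal members removed, thinning, and the largest cells removed. It was 120 (44 higher, 76 lower) with no filter on low counts, 31 (7 higher, 24 lower) with a replicate block, 9 (4 and 5) of 291 genes tested on the 13 members without signs of another cell type, and 12 (10 and 2) with at least 1000 UMIs of Ttr. The last was added after the data were seen, as were neuronal members removed, thinning and the largest cells removed. The cause was not tested. The block rests on 2 shared replicate numbers, which nothing in the labels ties to a shared litter or day. Limits of 10 or 20 members left no knockout library and no test. The 13 members without signs of another cell type were 1, 3 and 5 in wild type and 3 and 1 in the knockout.

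The difference in share (knockout minus wild type, percentage points) was 0.0952 with the 5% mitochondrial limit and -0.0562 to -0.0266 over left-out libraries. For median UMIs it was 12080 with the stricter rule, 22970 with the 5% limit, 1492 without signs of another cell type and -14110 to 9903 over left-out libraries. For median genes it was -132 without those signs and -604 to 1200 over left-out libraries. For the median mitochondrial percent it was 0.910 without those signs and -1.16 to -0.190 over left-out libraries. The log2 fold change turned for Ttr (1.61), Sostdc1 (0.94), mt-Co3 (0.52), mt-Nd1 (0.59), Mdh1 (0.17) and Hspa5 (0.74) without those signs, and for Bmp4 (-0.025) with thinning. For Stmn2 it turned without knockout replicate 3 (-0.55, to 2.02 over left-out libraries), with the stricter rule (-0.64) and with at least 1000 UMIs of Ttr (-1.17). With 8 to 13 cells a library, low genes cannot be compared.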
